A study of Mus musculus with 10 samples.

Results

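The 10 genes described here belong to the machinery by which endothelial cells sense blood flow and respond to it: the channel gene *Piezo1*, the kinase and transcription factor genes *Map2k5*, *Mapk7*, *Mef2c*, *Klf2* and *Klf4*, and the vasomotor genes *Nos3*, *Ddah2*, *Edn1* and *Ece1*. They were chosen by name, for known roles, from 27024 rows of an expression table that carry a gene name, and each stands on 1 row. All 10 were among the 11062 genes with a mean of at least 1 FPKM, a unit that counts fragments relative to the length of the gene and to the sequencing depth. RNA was sequenced from bEnd.3 cells, an immortalised mouse brain endothelial line of WT genotype. The 5 control samples (replicates 1, 2, 3, 4 and 5) received saline and the 5 treated samples (replicates 1, 2, 3, 5 and 6) received 5 nM StcE, each in growth medium for 16 h. StcE is a bacterial protease that cleaves proteins bearing dense mucin-type O-glycans, which form part of the layer of sugars on the endothelial surface. The comparison asks how this treatment goes with the expression of genes that respond to flow.

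Several features of the model bear on these values. The cells are a single immortalised line, and no flow is described for these cultures, so the levels are those of cells with no described flow stimulus. Nothing states that the samples of a group came from separate cultures, and p-values therefore measure only the spread between these samples. In RNA from whole cultures, fewer cells that express a gene and less RNA per cell cannot be told apart.

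Flowing blood drags on the endothelial surface, and this force opens the cation channel PIEZO1 and acts on junctional and surface proteins. Steady laminar flow activates the kinase MEK5, which phosphorylates ERK5, and ERK5 in turn activates MEF2 transcription factors that drive *Klf2* and *Klf4*. Their products raise endothelial nitric oxide synthase and hold back endothelin-1, a balance that favours dilated, quiescent vessels, and the surface glycan layer is held to take part in sensing the flow.

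The labelled cell type was checked against 12 endothelial marker genes. All 12 had a mean of at least 1 FPKM, and *Cdh5*, which encodes VE-cadherin, was the most abundant at 486 FPKM over the 10 samples. Markers of mural, fibroblast, leukocyte, glial and neuronal, and epithelial cells were low. *Acta2* led the mural list at 3.14 FPKM and *Pdgfra* the fibroblast list at 1.24 FPKM. *Cd68*, at 20.1 FPKM, was the exception, but the other leukocyte markers *Ptprc*, *Aif1* and *Itgam* were under 0.1 FPKM in every sample.

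Between 21859342 and 33140289 fragments were recovered per sample from the FPKM values. At this depth 3 fragments on a gene of 1 kilobase corresponded to 0.0857 to 0.131 FPKM, and each of the 10 genes had at least 641 fragments in every sample. *Map2k5* had the fewest (641 to 979 per sample) and *Nos3* the most (28558 to 45324), and such limits cover counting error only.

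Per kilobase of gene, the 10 genes spanned a 77.8-fold range of level in saline-treated cells. *Nos3* was the highest at 287 ± 13.5 FPKM (SD, n = 5), a level above that of 98.8% of the genes tested. *Klf2* (81.4 FPKM) and *Ece1* (68.6 FPKM) came next. *Ddah2* (58.1 FPKM), *Edn1* (54.2 FPKM) and *Piezo1* (54.2 FPKM) followed, and neighbours in this order could not be separated because their saline samples overlapped in FPKM. *Mapk7* (12.9 FPKM), *Klf4* (10.8 FPKM), *Map2k5* (8.72 FPKM) and *Mef2c* (3.70 FPKM) made up the lower end, with no overlap between neighbours. The last place of *Mef2c*, and with it the fold range, depends on gene length. Its merged exons span 15715 bases, against 3240 for *Map2k5*. *Mef2c* had 1221 to 2020 fragments per sample, more than the 641 to 979 of *Map2k5*. Per kilobase, the genes of the nitric oxide and endothelin systems were thus present at higher levels than those of the kinase module that lies upstream of *Klf2*.

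After StcE, 4 of the 10 genes passed the test across all genes (limma, Benjamini-Hochberg adjusted p under 0.05), whereas 11.9% of the 11062 genes tested did so. The 1 gene that rose was *Klf2* (5.52% of all tested genes rose), and the 3 that fell were *Ddah2*, *Edn1* and *Ece1* (6.41% fell). In 2 of the 10, *Ddah2* and *Ece1*, the StcE and saline samples did not overlap, against 10.7% of tested genes, and in both every StcE sample was the lower (5.8% of tested genes). None of the 10 had every StcE sample above every saline sample, a pattern shown by 4.85% of tested genes. The 10 genes were chosen with results of these data known, and no test was made of their share against that of all genes. Over all 11062 genes the log2 fold changes had a median of -0.000663.

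**Figure D1:**
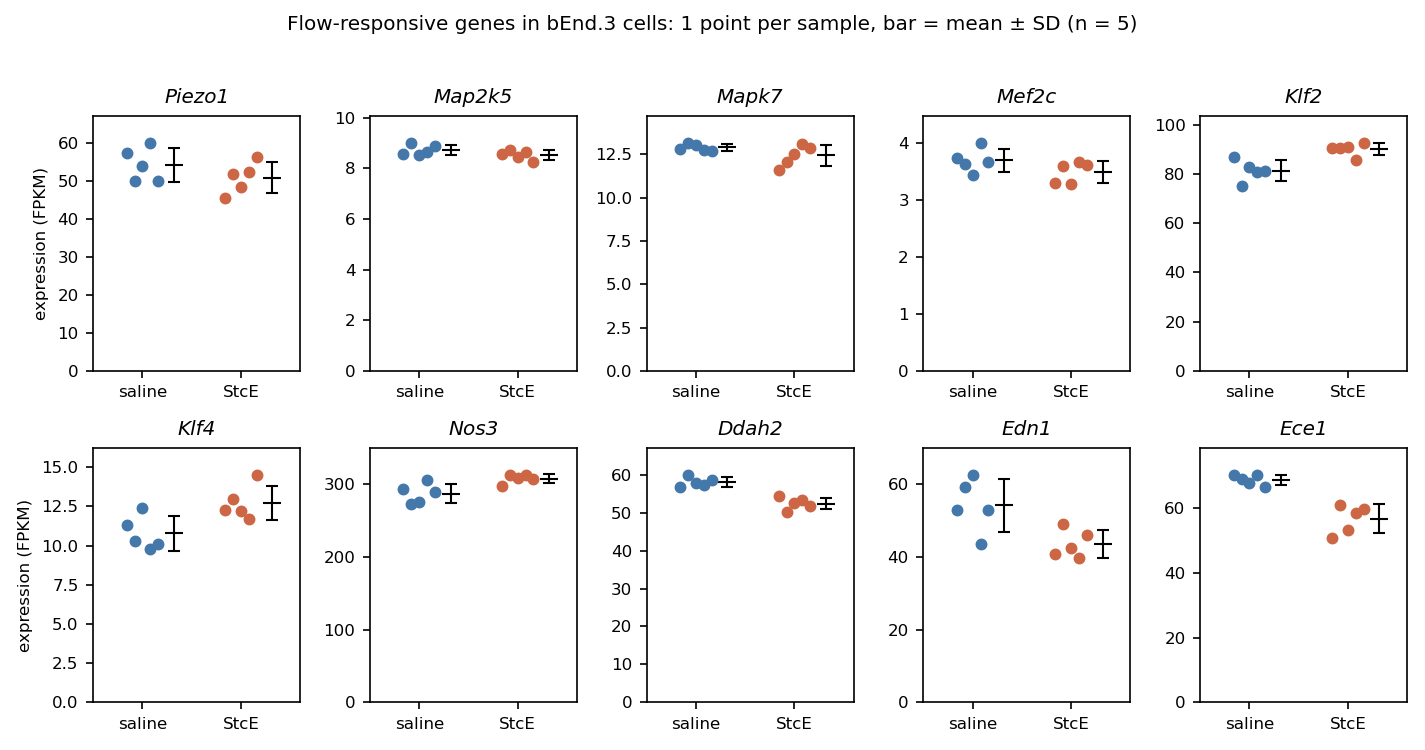
Expression of the 10 genes in FPKM (vertical axes, each from 0) in every sample, with 1 point per sample and the mean ± SD of 5 samples beside the points (blue, saline; orange, StcE). StcE and saline points are fully separate for *Ddah2* and *Ece1*, while 4 of 5 StcE points lie above every saline point for *Klf2* and *Nos3*.

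*Piezo1* (GRCm38 chromosome 8, 122481698 to 122551329, minus strand) encodes the mechanically gated channel at the top of the pathway. Its level was 57.4, 49.9, 54.0, 59.9 and 49.99 FPKM in saline replicates 1, 2, 3, 4 and 5. In StcE replicates 1, 2, 3, 5 and 6 it was 45.6, 51.7, 48.4, 52.3 and 56.3 FPKM. The groups overlapped, with StcE replicates 1 and 3 below every saline sample and StcE replicate 6 above 3 of the 5 saline samples. The log2 fold change of -0.09 had a 95% interval of -0.23 to 0.05 and did not pass the test (limma adjusted p = 0.379). It was -0.05 without StcE replicate 1 (limma adjusted p = 0.638) and -0.05 without saline replicate 4 (limma adjusted p = 0.627), in a range of 0.199 to 0.638 over 20 alternatives. Exons of *Ctu2* on the opposite strand cover 24.6% of the exon length of *Piezo1*. The libraries kept strand, but the strand setting of the counting is not given in the sources used here. *Ctu2* stood at 3.55 FPKM with saline and 3.99 FPKM with StcE.

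Other genes whose products sense flow or lie next to such sensors were described as a list. Of 27 tested beside *Piezo1*, 5 passed the test and all 5 fell, where 6.41% of all tested genes fell, with a median log2 fold change of -0.059 over the list. *Heg1*, a transmembrane mucin-like receptor of endothelial cells, went from 23.8 to 17.9 FPKM (log2 fold change -0.40, limma adjusted p = 0.00112). *Itga5*, the integrin subunit that binds fibronectin, had a log2 fold change of -0.15 (limma adjusted p = 0.00442), and that of *Gnaq*, a G protein subunit, was -0.14 (limma adjusted p = 0.0279). *Pecam1*, whose product is part of the junctional sensor complex, had a log2 fold change of -0.11 (limma adjusted p = 0.0425). It also stands among the 12 endothelial markers, of which 6 fell and 1 rose. The remaining gene of the 5 was *Ptk2*, the gene of focal adhesion kinase, named here after its values were seen, at -0.08 (limma adjusted p = 0.047). *Piezo1* itself did not pass the test. The sign of its estimate carries little information, since 21 of the 27 other tested genes also lay below 0.

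The 3 genes of the kinase module had small differences. *Map2k5* (chromosome 9, 63163768 to 63377902, minus strand), the gene of MEK5, ranged from 8.53 to 8.98 FPKM with saline and from 8.25 to 8.72 FPKM with StcE. *Mapk7* (chromosome 11, 61488812 to 61494406, minus strand), the gene of ERK5, ranged from 12.7 to 13.1 FPKM with saline and from 11.6 to 13.1 FPKM with StcE. *Mef2c* (chromosome 13, 83504034 to 83667080, plus strand), which encodes a transcription factor that ERK5 activates, ranged from 3.43 to 3.995 FPKM with saline and from 3.28 to 3.67 FPKM with StcE.

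The groups overlapped for all 3, and the mean was slightly lower with StcE in each. The log2 fold changes were -0.03 for *Map2k5* (95% interval -0.09 to 0.03), -0.05 for *Mapk7* (-0.12 to 0.02) and -0.06 for *Mef2c* (-0.15 to 0.03). None passed the test, with limma adjusted p values of 0.496, 0.347 and 0.35. Leaving out 1 sample brought the estimate to -0.02 for *Map2k5* (without StcE replicate 6), -0.03 for *Mapk7* (without StcE replicate 1) and -0.04 for *Mef2c* (without saline replicate 4). Other omissions enlarged the estimate, to -0.04 for *Map2k5* (without StcE replicate 2) and -0.07 for *Mapk7* (without StcE replicate 5). For *Mef2c* it reached -0.08 (without saline replicate 3). At the RNA level the 95% intervals, taken 1 gene at a time, ran no lower than -0.15 and no higher than 0.03. They reflect only the spread between these samples, so they set no bound on an effect of StcE in other cultures. They carry no information on phosphorylation, the step by which MEK5 and ERK5 are known to act. *Mapk7* was the most even of the 10 genes among saline samples, with a coefficient of variation of 1.46%, against 4.92% among StcE samples, where replicates 1, 2 and 3 lay below every saline sample and replicate 5 was at 13.1 FPKM. On the opposite strand, *Mfap4* covers 2.03% of the exon length of *Mapk7*.

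Of 15 other tested genes of the MEK5, ERK5 and MEF2 module, 2 passed the test, and both fell, a share near the 11.9% of all tested genes that passed. They were *Heg1*, which also stands among the sensors, and *Hdac5*, a repressor of MEF2 factors, which went from 4.0 to 3.61 FPKM (log2 fold change -0.12, limma adjusted p = 0.0298). The median log2 fold change over these 15 genes was 0.0022. *Rasip1*, an effector of endothelial GTPases, was the most abundant gene of this list.

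*Klf2* (chromosome 8, 72319033 to 72321656, plus strand) encodes the transcription factor most closely tied to laminar flow, and its upstream region and that of *Edn1* are shown because both genes passed the test, in opposite directions, and are classical targets of flow signalling. RefSeq promoter windows of GRCm38.p6, from 250 bases before to 50 after each transcript start, were found for 9 of the 10 genes, in 15 windows, and not for *Nos3*. The *Klf2* stretch is chr8:72318812-72319032 and the *Edn1* stretch chr13:42301226-42301475, both on the plus strand, and both end just before the first annotated base of the gene. Capitals mark a match to the MEF2 consensus in *Klf2*, and in *Edn1* the shear stress response element GAGACC, read on the minus strand as GGTCTC, and the KLF box CACCC, read on the minus strand as GGGTG.
Klf2: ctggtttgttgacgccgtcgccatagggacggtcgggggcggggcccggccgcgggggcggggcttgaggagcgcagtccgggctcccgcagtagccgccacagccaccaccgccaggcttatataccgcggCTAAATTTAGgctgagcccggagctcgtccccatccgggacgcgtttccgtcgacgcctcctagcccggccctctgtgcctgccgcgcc
Edn1: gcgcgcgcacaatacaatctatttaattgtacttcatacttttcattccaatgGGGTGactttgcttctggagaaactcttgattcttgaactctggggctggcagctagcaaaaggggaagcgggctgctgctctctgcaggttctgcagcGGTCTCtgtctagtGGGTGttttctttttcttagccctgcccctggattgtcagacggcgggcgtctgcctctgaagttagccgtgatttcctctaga
Each motif was searched on both strands of every window, and the marked matches do not overlap one another. The MEF2 match of *Klf2* begins at position -118 from the RefSeq start, and 3.19% of 32851 mouse promoter windows hold such a match, as did 1 of the 15 windows of these genes. The GAGACC element, which in *Edn1* begins at position -98, occurs in 16.4% of all windows and in 3 of the 15, among them that of *Piezo1* at position -167. CACCC occurs in 57.5% of all windows and in 11 of the 15. The AP-1 motif TGANTCA was present in 7.81% of all windows and 1 of the 15, and the kappaB motif in 8.46% and 2 of the 15. Both kappaB matches are the same site of *Mapk7*, seen at -33 and -38 in its 2 windows. *Mef2c* has 3 windows and *Ece1* has 4, so counts of windows are not counts of genes. These matches describe letters in a window and are no evidence of binding.

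*Klf2* was at 86.8, 75.2, 82.7, 81.0 and 81.1 FPKM in saline replicates 1, 2, 3, 4 and 5. In StcE replicates 1, 2, 3, 5 and 6 it was at 90.5, 90.8, 90.9, 85.8 and 92.5 FPKM. Of the StcE samples, 4 lay above every saline sample, and replicate 5 lay below saline replicate 1 alone. The mean rose from 81.4 ± 4.19 to 90.1 ± 2.53 FPKM (SD, n = 5 each), a 10.7% higher level and a log2 fold change of 0.15 with a standard error of 0.0353 (limma adjusted p = 0.0219; exact permutation p = 0.0159). All 5 StcE samples were above the saline mean. The call held in 16 of 20 alternatives, with limma adjusted p from 0.00984 to 0.139. Those that ended it included leaving out StcE replicate 3 (limma adjusted p = 0.0538), testing without a minimum level (0.0624) and using only the 8 samples whose replicate numbers occur in both groups (0.082).

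*Klf4* (chromosome 4, 55527143 to 55532466, minus strand) encodes a related factor that shares many endothelial targets with KLF2. Saline replicates 1, 2, 3, 4 and 5 had 11.3, 10.3, 12.4, 9.75 and 10.1 FPKM. StcE replicates 1, 2, 3, 5 and 6 had 12.3, 12.99, 12.2, 11.7 and 14.5 FPKM. All 5 StcE samples were above the saline mean, but 3 of them fell below saline replicate 3, so the groups overlapped. The log2 fold change of 0.22 (95% interval 0.08 to 0.37) was larger than that of *Klf2*, a difference that was not tested, but it came with a wider spread (standard error 0.067) and missed the threshold (limma adjusted p = 0.052; exact permutation p = 0.0317). It passed without saline replicate 3 (log2 fold change 0.27, limma adjusted p = 0.0198), with rescaling to total fragments or to the upper quartile (limma adjusted p = 0.0468 and 0.044) and in a fit of recovered fragments (limma adjusted p = 0.0264). In the 8 samples whose replicate numbers occur in both groups the log2 fold change was 0.15 (limma adjusted p = 0.169), and the adjusted p ranged from 0.0198 to 0.212 over 20 alternatives.

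Among 10 other tested KLF family genes, 3 passed the test and all 3 rose, where 5.52% of all tested genes rose. *Klf10*, a TGFβ-inducible family member, went from 15.7 to 19.0 FPKM (log2 fold change 0.26, limma adjusted p = 0.000867) and *Klf5* from 3.37 to 4.32 FPKM (0.28, limma adjusted p = 0.00242). *Klf16* had a log2 fold change of 0.12 (limma adjusted p = 0.0148). In these 3 genes every StcE sample exceeded every saline sample, as in 4.85% of all tested genes, whereas the groups overlapped for *Klf2* and *Klf4*. The other 7 genes did not pass, and the median log2 fold change over the 10 was -0.0078. *Klf6* was the most abundant of them.

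The genes whose log2(FPKM + 1) followed that of *Klf2* most closely over the 10 samples were *Ezr* (Pearson r = 0.954), *Brd1* (0.953) and *Ucp2* (0.945). For *Klf4* they were *Smad7* (0.947), *Smurf2* (0.932) and *Axl* (0.923). These 6 were picked as the highest of 11062 genes, and the points share the group difference, so the values are given as a description.

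**Figure D2:**
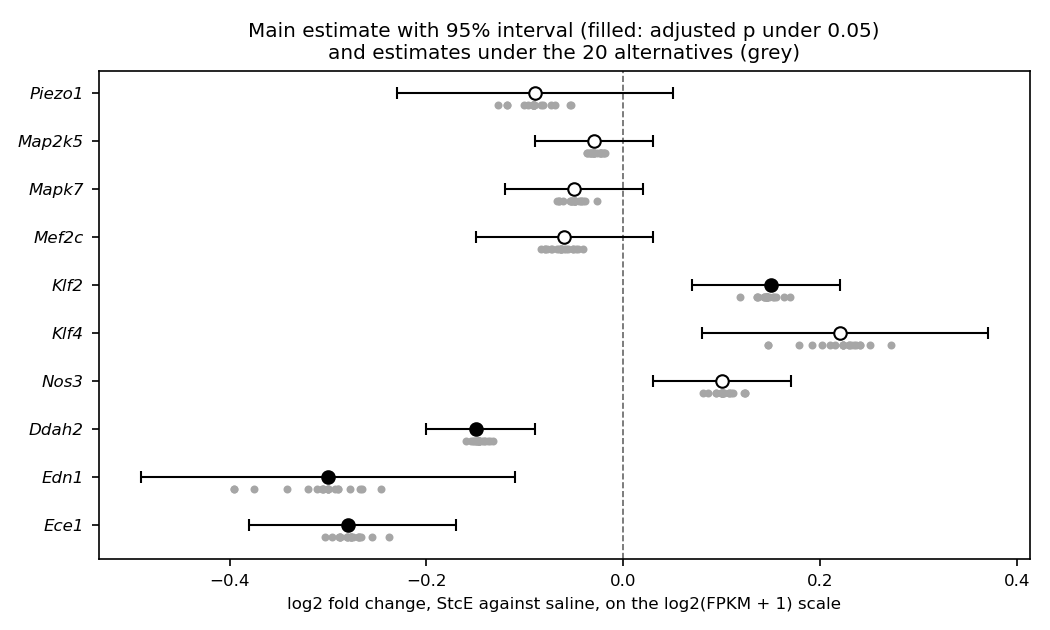
Log2 fold change of StcE against saline for each of the 10 genes on the log2(FPKM + 1) scale, with the 95% interval (black, filled where the limma adjusted p is under 0.05) and the estimates under 20 alternative settings (grey). Every estimate of a gene keeps to its side of 0, and the intervals of *Piezo1*, *Map2k5*, *Mapk7* and *Mef2c* include 0.

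*Nos3* (chromosome 5, 24364810 to 24384474, plus strand) encodes endothelial nitric oxide synthase, the best-known target of KLF2. It was at 293, 272, 276, 306 and 289 FPKM in saline replicates 1, 2, 3, 4 and 5. In StcE replicates 1, 2, 3, 5 and 6 it was at 298, 313, 308, 313 and 307 FPKM. Here too 4 StcE samples lay above every saline sample, and StcE replicate 1 lay below saline replicate 4. The difference of 7.13% in mean level (287 ± 13.5 against 308 ± 6.0 FPKM; SD, n = 5 each) corresponded to a log2 fold change of 0.10 (95% interval 0.03 to 0.17) and did not pass the test across genes (limma adjusted p = 0.0628; exact permutation p = 0.0159). It passed without saline replicate 4 (log2 fold change 0.12, limma adjusted p = 0.0226), with rescaling to total fragments (limma adjusted p = 0.0274) and in a fit of recovered fragments (limma adjusted p = 0.0308), in a range of 0.0226 to 0.17 over 20 alternatives.

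Exons of *Atg9b* and *Gm15587* on the opposite strand cover 32.3% of the exon length of *Nos3*, and without the strand setting of the counting, fragments of these genes cannot be told apart from those of *Nos3* there. Both were listed at far lower levels than *Nos3*. *Atg9b* went from 1.34 to 1.54 FPKM without passing the test, and *Gm15587* rose from 2.10 to 3.02 FPKM (log2 fold change 0.37, limma adjusted p = 0.00637).

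*Ddah2* (chromosome 17, 35059035 to 35062095, plus strand) encodes a dimethylarginine dimethylaminohydrolase, a family known for clearing methylated arginines that inhibit nitric oxide synthases. Its level was 56.8, 60.0, 57.8, 57.3 and 58.7 FPKM in saline replicates 1, 2, 3, 4 and 5. It was 54.4, 50.3, 52.4, 53.2 and 51.7 FPKM in StcE replicates 1, 2, 3, 5 and 6. Every StcE sample was below every saline sample, and the gap between the groups lay between StcE replicate 1 and saline replicate 1. *Ddah2* fell from 58.1 ± 1.26 to 52.4 ± 1.55 FPKM (SD, n = 5 each), a change of -9.83% and a log2 fold change of -0.15 with a standard error of 0.0253 (limma adjusted p = 0.00365). The exact permutation p was 0.00794, the smallest that 5 against 5 samples allow, and the limma call held in 19 of 20 alternatives. In size this change was close to that of *Klf2*, with the opposite sign and a smaller error.

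Of *Nos3* and *Ddah2*, only *Ddah2* passed the test, and it was lower with StcE. The synthase gene *Nos3* had a higher mean with StcE without passing. *Ddah1*, the other gene of the *Ddah2* family, did not pass either (log2 fold change -0.08, limma adjusted p = 0.105). Clearance of the inhibitors was not measured. Among 22 other tested genes of nitric oxide production and its regulation, 2 rose and 1 fell, with a median log2 fold change of 0.032, and this share too was near the 11.9% of all tested genes. *Gch1*, the gene for the entry enzyme of tetrahydrobiopterin synthesis, rose from 12.1 to 13.9 FPKM (log2 fold change 0.19, limma adjusted p = 0.00614). *Asl*, which acts in the recycling of citrulline to arginine, rose from 5.74 to 6.73 FPKM (0.20, limma adjusted p = 0.0082). *Cav1*, whose product binds and restrains the synthase in caveolae, fell from 652 to 541 FPKM (log2 fold change -0.27, limma adjusted p = 1.42e-05).

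*Edn1* (chromosome 13, 42301476 to 42307990, plus strand) encodes preproendothelin-1, the precursor of a strong vasoconstrictor peptide. Its level was 53.0, 59.2, 62.6, 43.5 and 52.8 FPKM in saline replicates 1, 2, 3, 4 and 5. In StcE replicates 1, 2, 3, 5 and 6 it was 40.9, 49.1, 42.4, 39.8 and 46.2 FPKM. Saline replicate 4 lay within the StcE samples, the other 4 saline samples lay above all of them, and the coefficient of variation among saline samples, 13.5%, was the highest of the 10 genes. *Edn1* fell from 54.2 ± 7.32 to 43.7 ± 3.85 FPKM (SD, n = 5 each), a change of -19.5% and a log2 fold change of -0.30 with a standard error of 0.0884 (limma adjusted p = 0.0483; exact permutation p = 0.0238). In size this was the largest log2 fold change of the 10 genes and the least certain of the 4 calls.

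The *Edn1* call held in 6 of 20 alternatives, with limma adjusted p from 0.00782 to 0.152 and log2 fold changes from -0.40 to -0.25. On the opposite strand, *Gm47118* covers 1.64% of its exon length. When 1 sample was left out, the call was kept without saline replicate 4 (log2 fold change -0.38, limma adjusted p = 0.00782) or StcE replicate 2 (-0.34, limma adjusted p = 0.0362) and lost without any one of the other 8.

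*Ece1* (chromosome 4, 137862237 to 137965229, plus strand) encodes the endothelin-converting enzyme, which releases the active peptide from its precursor. It was at 70.0, 68.8, 67.7, 70.1 and 66.4 FPKM in saline replicates 1, 2, 3, 4 and 5. In StcE replicates 1, 2, 3, 5 and 6 it was at 50.7, 60.9, 53.2, 58.5 and 59.7 FPKM. The saline samples were tightly grouped (coefficient of variation 2.34%) and all lay above the StcE samples, which were more spread out (7.81%), with replicates 1 and 3 the lowest. *Ece1* fell from 68.6 ± 1.6 to 56.6 ± 4.42 FPKM (SD, n = 5 each), a change of -17.5% and a log2 fold change of -0.28 with a standard error of 0.0466 (limma adjusted p = 0.0032; exact permutation p = 0.00794). It was the only one of the 10 past the threshold under all 20 alternatives, with log2 fold changes from -0.30 to -0.24.

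The genes of the precursor and of its converting enzyme thus fell by similar proportions. Of the 3 other tested genes of the endothelin system, *Furin*, a proprotein convertase that acts on the precursor before ECE1 does, fell from 21.2 to 18.1 FPKM (log2 fold change -0.22, limma adjusted p = 0.00881), and the remaining ones did not pass. Among all tested genes 6.41% fell. StcE and saline samples did not overlap for *Furin*, as for *Ece1*, and every StcE sample was likewise the lower in 5.8% of all tested genes.

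**Figure D3:**
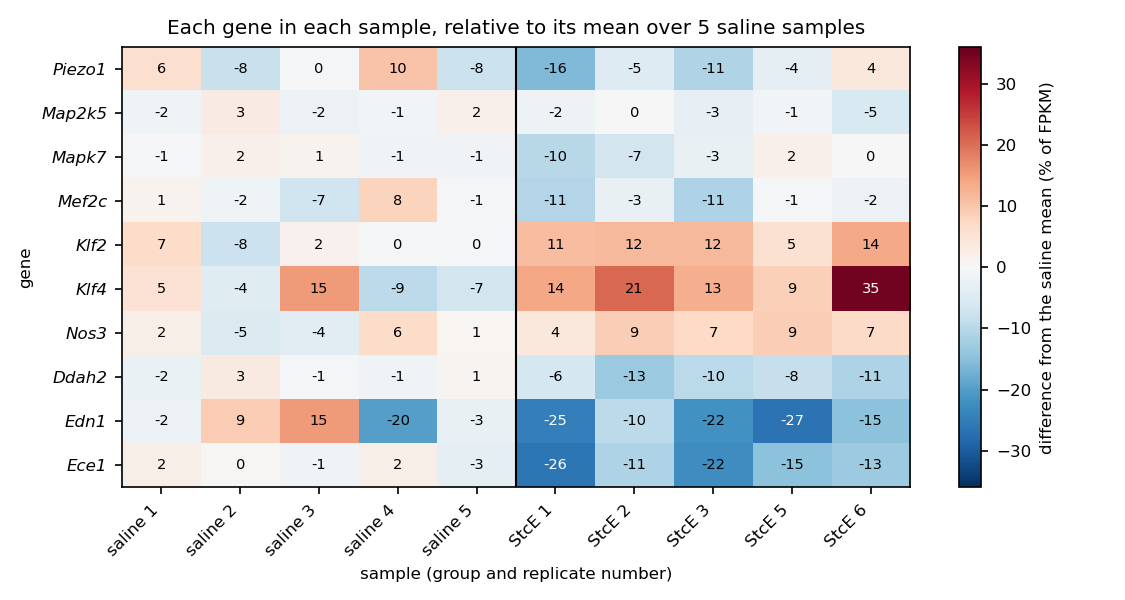
Difference of each sample from the mean of the 5 saline samples, as a percentage of FPKM, for the 10 genes (rows) and 10 samples (columns, named by group and replicate number). The StcE columns are uniformly above the saline mean for *Klf2*, *Klf4* and *Nos3* and uniformly below it for *Mef2c*, *Ddah2*, *Edn1* and *Ece1*.

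The samples at the ends of the groups differed from gene to gene, and none lay apart from its group by Dixon's ratio for any of the 10 genes. StcE replicate 1 had the lowest *Piezo1*, *Mapk7* and *Ece1* of the 10 samples, and its *Ece1* level differed from the saline mean by -26.1%. StcE replicate 6 had the highest *Klf2* and *Klf4*, at 13.7% and 34.7% above the saline mean. Saline replicate 4 had the lowest *Edn1* and *Klf4* of the saline samples and the highest *Nos3*, *Piezo1*, *Mef2c* and *Ece1*. In *Klf4* saline replicate 3 was the only saline sample to reach into the StcE samples, and in *Nos3* saline replicate 4 was.

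The wider sets of flow-responsive genes did not follow *Klf2* in 1 direction. Among 20 other tested genes listed here as raised by laminar flow, KLF2 or KLF4, 4 rose and 4 fell (5.52% and 6.41% of all tested genes did so). Their median log2 fold change was -0.057. The response to flow was assigned from general knowledge and may not hold for every gene listed, *Txnip* and *Sema7a* among them, neither of which passed the test. *Ptgs2*, the gene of the inducible prostaglandin synthase, rose from 58.6 to 79.9 FPKM (log2 fold change 0.44, limma adjusted p = 0.00417), and *Dusp5*, an ERK phosphatase gene, rose from 20.6 to 26.9 FPKM (0.37, limma adjusted p = 0.000384). *Cyp1b1* fell from 3.06 to 1.81 FPKM (log2 fold change -0.53, limma adjusted p = 0.000458) and *Timp3*, an inhibitor of matrix proteases, from 56.3 to 43.7 FPKM (-0.36, limma adjusted p = 2.87e-05). *Hmox1* was the most abundant gene of this list.

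Of 25 other tested genes listed here as raised by disturbed or low flow, a class that includes *Edn1*, again 4 rose and 4 fell. Among all tested genes 5.52% rose and 6.41% fell, and the median of the list was 0.009. *Axl* (log2 fold change 0.28, limma adjusted p = 0.00417) and *Egr1* (0.29, limma adjusted p = 0.00834) were among those that rose. *Vcam1*, a leukocyte adhesion receptor gene, fell from 6.67 to 4.78 FPKM (log2 fold change -0.41, limma adjusted p = 0.00287), and *Bmp4* fell from 89.7 to 75.7 FPKM (-0.24, limma adjusted p = 0.000171). The fall of *Edn1* was therefore shared by some genes of its class and opposed by as many others.

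**Figure D4:**
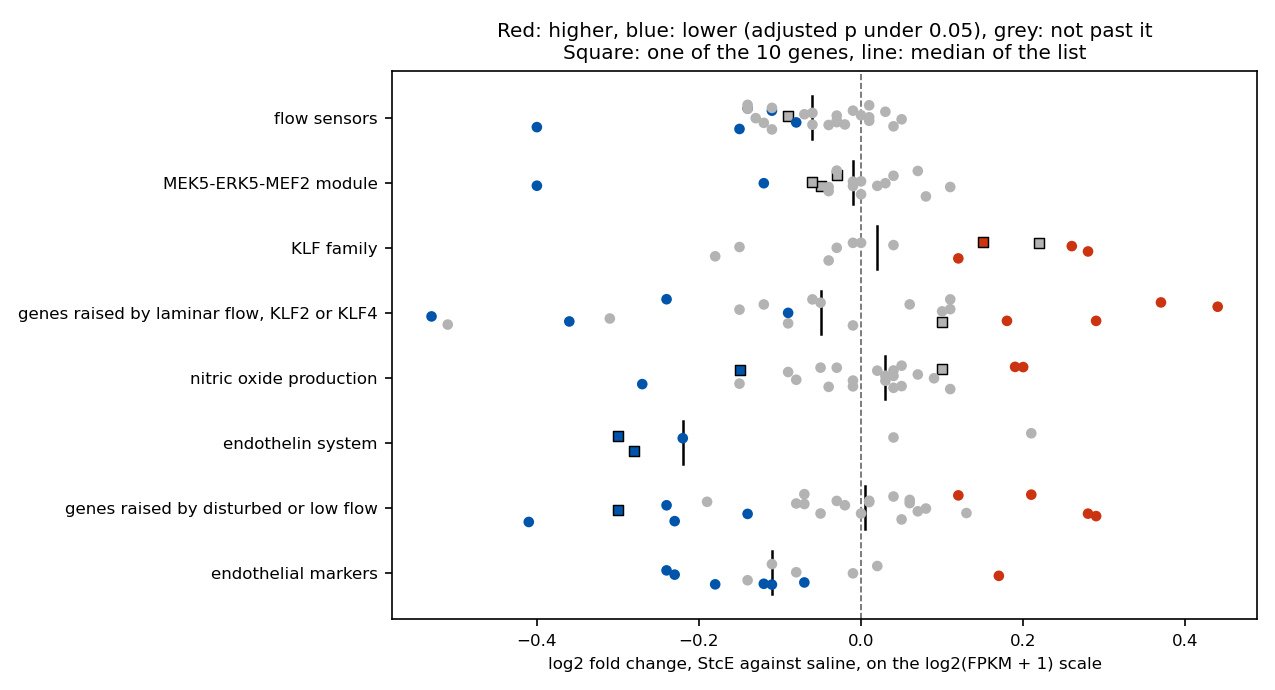
Log2 fold change of StcE against saline on the log2(FPKM + 1) scale for the tested genes of each list (circles) and the 10 genes (squares), red where higher and blue where lower at a limma adjusted p under 0.05, grey otherwise, with a line at the median of each list, the 10 genes included. The lists for laminar and for disturbed flow each have points on both sides of 0.

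Some endothelial identity genes differed between the groups as well. Of the 12 endothelial markers, 6 fell and 1 (*Egfl7*) rose, where 6.41% of all tested genes fell and 5.52% rose. Their median log2 fold change was -0.11, and no marker of the list was at 0. Their summed level was 2113, 2025, 2028, 2112 and 1968 FPKM in saline replicates 1, 2, 3, 4 and 5. In StcE replicates 1, 2, 3, 5 and 6 it was 1914, 1916, 1976, 1986 and 1987 FPKM. The samples overlapped, since saline replicate 5 lay below 3 StcE samples. This sum follows the abundant genes most and is given as a description. *Cdh5* went from 509 to 463 FPKM, while *Egfl7* rose from 166 to 188 FPKM. *Ece1*, *Ddah2* and *Edn1* fell while *Klf2* rose on this background, and the part of the marker change in these results was not tested.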

How the data were processed

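Poly-adenylated RNA of 10 bEnd.3 samples had been made into strand-specific paired-end libraries. The submitters' processing notes name HISAT2 2.0.5, featureCounts 1.5.0-p3, DESeq2 1.32.0 and the mouse build mm10 (GRCm38). The authors deposited FPKM values, 1 column per sample, for 27024 named rows, with 22874 empty rows besides. No column held a comparison made by the authors. The annotation release and the strand setting of the counting are not given in the sources used here.

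Values were tested as log2(FPKM + 1), a pseudocount that understates the change of low genes, for 11062 genes whose mean FPKM over all samples reached 1. The test was limma 3.58.1 in R 4.3.3 (lmFit, eBayes with trend) with treatment alone in the model and p-values adjusted over all tested genes by Benjamini and Hochberg's method, and it was tested on simulated data. Since the deposited unit is FPKM, a test on the log scale was the main one, and a fit of the recovered fragments was run as an alternative. Single genes were also compared by exact two-sided permutation over 252 arrangements. Exon lengths of GENCODE vM21 turned 96.6% of the values above 0 into whole fragments (tolerance 0.05). The FPKM scale followed each sample's median-of-ratios size factor within 0.0441%, so the deposited FPKM were already normalised between samples. Transcripts of other genes at least 95% identical over at least 150 bases were searched for with BLAST 2.17.0, and apart from the overlapping genes named above the 10 genes had none.

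The genes named are the 10, the genes of each list past the threshold with the smallest p (at most 4 in each direction), the most abundant of each list, and the 3 most correlated with *Klf2* and with *Klf4*. *Ptk2*, *Ddah1*, the overlapping genes and the leukocyte markers below 0.1 FPKM fall outside this rule. The 10 genes and the lists were chosen with earlier results of these data known. The alternatives were a pseudocount of 0.1, a minimum of 0.1 or none, scaling to total fragments or the upper quartile, eBayes without trend or robust, a replicate block, the same 8 samples without it, limma-voom on recovered fragments, and each sample left out in turn.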

Additional observations from a re-analysis of the deposited data

Results flagged for a closer look

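In 4 of 116 groups of 5 samples, over 58 named genes, 1 sample lay far from the other 4 by Dixon's ratio, where chance gives about 1 in 20, or 5.8. None of the 4 concerned the 10 flow-responsive genes. *Rasip1* was at 74.7 FPKM in saline replicate 2, with the others between 85.3 and 86.9 FPKM. *Tie1* was at 125.9 FPKM in saline replicate 5, with the others between 135 and 139 FPKM. *Egr1* was at 3.69 FPKM in StcE replicate 2, with the others between 4.16 and 4.35 FPKM, and *Ezr* was at 26.8 FPKM in StcE replicate 5, with the others between 28.0 and 28.5 FPKM. The cause was not tested.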

How the results depend on the processing

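Under all 20 alternatives each of the 10 genes kept the direction of its difference. *Ece1* passed the threshold in 20 of them, *Ddah2* in 19, *Klf2* in 16, *Edn1* in 6, *Klf4* in 4 and *Nos3* in 4, and the other 4 genes did not pass in any. In the main analysis 1320 genes passed, 709 lower and 611 higher, 4 of them among the 10. Scaling to total fragments gave 628 lower and 667 higher, and scaling to the upper quartile gave 612 lower and 658 higher. Without a minimum level, over 27024 genes, 801 passed (409 lower, 392 higher), 2 of the 10 among them, and *Klf2* (log2 fold change 0.15) and *Edn1* (-0.30) did not. *Edn1* also missed the threshold with a minimum of 0.1, without trend and with robust eBayes (each -0.30), and after scaling to total fragments or to the upper quartile (each -0.29). *Klf4* passed with either scaling and with voom (each 0.23), and *Nos3* with total fragments (0.11) and voom (0.10). The cause was not tested.

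With each sample left out in turn, 793 to 1255 genes passed (409 to 667 lower, 384 to 588 higher), 2 to 5 of the 10 among them. The lowest count was without StcE replicate 3, and 838 passed without saline replicate 1. Log2 fold changes ranged from 0.12 to 0.17 for *Klf2*, 0.18 to 0.27 for *Klf4*, 0.081 to 0.12 for *Nos3* and -0.38 to -0.25 for *Edn1*.

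With the replicate number as a replicate block over 8 samples, 349 genes passed (162 lower, 187 higher), 2 of the 10 (*Ece1* and *Edn1*) among them, with *Klf2* at 0.14 and *Ddah2* at -0.15 past no threshold. Unblocked, these 8 samples gave 885 (452 lower), with *Klf2* at 0.14 not past the threshold and *Nos3* at 0.12 past it. Over all tested genes, samples sharing a number did not deviate together (correlations -0.0966, -0.0225, -0.0265 and 0.0538). These values give no sign of pairing by number. They cannot exclude a culture or batch shared by samples of the same number. Depth was thinnest for *Map2k5*, with 641 to 979 fragments per sample.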
